A study of Mus musculus with 6 samples.

Results

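The tripartite motif (TRIM) genes of the mouse were followed across 6 RNA-seq libraries of peritoneal macrophages. Members are the genes whose symbol is Trim followed by a number, with 1 transcript kept for each symbol, the one with the highest mean over the 6 libraries. The deposited table lists 66 such symbols, of which 20 had no read in any library, 20 had a mean under 10 reads and 26 had a mean of at least 10 reads. Those 26 members are described here, among 7995 genes of the same mean depth and 23282 symbols in all. Nearest to the limit, Trim23 with a mean of 10.2 reads and Trim29 with 10.7 lay inside it, and Trim14 with 9.5 and Trim12a with 6.83 lay outside.

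Female C57BL/6 mice, whose age the labels do not give, were the source of the cells, peritoneal macrophages elicited with thioglycollate. They were held with a small interfering RNA (siRNA) for 48 h, and the KLA samples then had 100 ng/ml Kdo2-lipid A for 4 h. Smyd5, the target of siSmyd5, encodes a SET and MYND domain protein, and Phf2, the target of siPhf2, a PHD finger protein of the jumonji demethylase group. There were 6 groups of 1 library each: siSmyd5 with KLA, siSmyd5 with vehicle, siPhf2 with KLA, siPhf2 with vehicle, siCtl (control siRNA) with KLA and siCtl with vehicle. All cells had received an siRNA. Whether cells of several mice were pooled is not given in the sources used here. No group had a replicate.

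Most TRIM proteins carry an N-terminal RING domain, which recruits ubiquitin-charged enzymes, followed by B-box zinc fingers and a coiled coil, and they are sorted into classes by the domain at the C terminus. Members with a C-terminal SPRY domain (class C-IV) include antiviral restriction factors and ligases that act on the sensors of viral RNA. KLA is the lipid A part of a bacterial lipopolysaccharide and a ligand of the receptor Tlr4. In macrophages Tlr4 signals to NF-kappaB and, through the adaptor Ticam1, to type I interferon, which acts back on the cells and induces many TRIM genes.

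Several properties of the libraries bear on all values. The recovered reads were 919325 and 921923 in the siSmyd5 libraries (KLA, then vehicle), 420142 and 577056 in the siPhf2 libraries, and 1429519 and 1359286 in the siCtl libraries. The ribosomal RNA precursor Rn45s took 71.64% and 66.65% of the reads in the siPhf2 libraries (KLA, then vehicle) and between 0.62% and 1.2% in the other 4, so that 119137 and 192422 reads were left for other genes. One read was worth 7.22 and 4.06 CPM (TMM-scaled reads per 1000000 reads of the library) in the siPhf2 libraries and 0.41 to 0.71 CPM elsewhere, and 18 of 26 members had fewer than 10 reads in each siPhf2 library. Values in columns named siCtl came out as whole reads only with the tag totals printed for siPhf2, and those named siPhf2 only with the totals printed for siCtl, so names or totals were exchanged in the table. The printed names are kept, and "siPhf2" stands for the libraries labelled so. Smyd5 had 9 reads in siSmyd5 vehicle cells against 44 in siCtl vehicle cells, a ratio of 0.329 (95% interval 0.141–0.684), and with KLA 20 against 29 reads, a ratio of 1.1 (0.592–2.02). Phf2 was not lower in the libraries labelled siPhf2: it had 8 against 120 reads with KLA, a ratio of 1.08 (0.458–2.21), and 29 against 113 reads with vehicle, a ratio of 2.54 (1.63–3.85). All 8 macrophage markers were read, at 3606 to 5385 CPM in sum per library. T cell markers summed to at most 4.88 CPM, B cell markers to 5.29–16.3 CPM, natural killer cell markers to at most 12.8 CPM, mast cell markers to at most 12 CPM and dendritic cell markers to at most 14.4 CPM. Neutrophil markers summed to at most 25.1 CPM, the eosinophil markers Epx and Prg2 were at 0 in all 6 libraries, and stromal markers summed to 289–641 CPM.

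Among the 26 members the level per length of transcript spanned the range from Trim28 to Trim23. Trim28, a co-repressor that KRAB zinc finger proteins recruit to silence retroelements, stood first with a median of 53.7 CPM per kb over the 6 libraries (46.7–73.9). Trim25, the ligase that modifies the RNA sensor RIG-I, followed with 35 CPM per kb, but over a wide range of 18.3–151 CPM per kb. Next came Trim8, a class C-V member without a named C-terminal domain, at 19.8 CPM per kb (13.8–28.9). Levels per kb rest on the listed transcript length, while the table's header names coding sequence. The bulk libraries cannot tell a lower RNA level per cell from fewer cells that hold the RNA.

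The other classes had their highest members further down that order. Trim13 of class C-XI, a ligase anchored in the endoplasmic reticulum membrane, had a median of 13.4 CPM per kb with a range of 0–50.1 CPM per kb. Trim3, an NHL-repeat protein of class C-VII, had 9.41 CPM per kb and Trim36 of class C-I, a microtubule-associated ligase, 5.77 CPM per kb. Among the members with no RING domain, Trim29 had a median of 2.95 CPM per kb and Trim44 2.79. Trim37 of class C-VIII, which carries a MATH domain, had 2.76 CPM per kb, and Trim23 of class C-IX, which carries an ARF-like GTPase domain, was last at 1.18 CPM per kb. Every pair of neighbours in this order overlapped in their ranges over the 6 libraries.

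**Figure D1:**
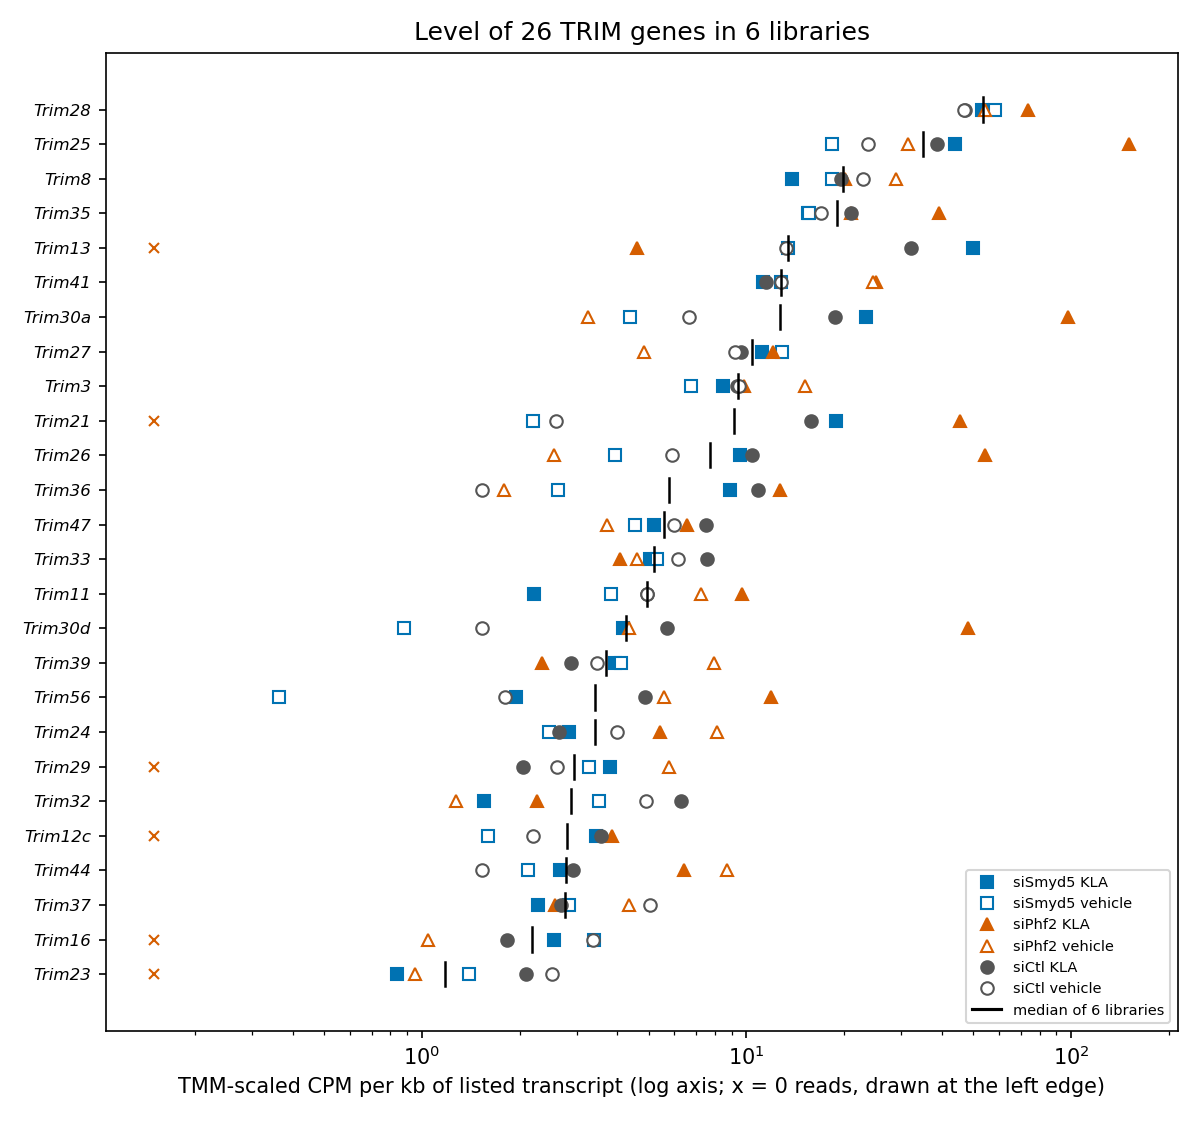
Level of each of the 26 TRIM members in each library, as TMM-scaled CPM per kb of transcript on a log axis; filled symbols are KLA, open symbols vehicle, crosses stand for 0 reads, and the bar is the median. Trim28 stays within 46.7–73.9 CPM per kb, while Trim25, Trim30a, Trim26 and Trim30d spread widely, with the siPhf2 KLA library at the top of each.

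With KLA, 8 of the 26 members rose and none fell in an additive fit of siRNA and agent to all 6 libraries (edgeR quasi-likelihood test, Benjamini-Hochberg threshold 0.05). That is 30.8% of the members, against 11.2% of all 7995 genes that rose and 4.6% that fell, and 10 members (38.5%) had an unadjusted p under 0.05, as did 26.5% of all genes. The members' median log2 fold was 0.09 and that of all genes -0.03. The limit of 10 reads is a mean over all 6 libraries, so a gene can reach it through the agent where it is high. With vehicle in siSmyd5, siPhf2 and siCtl cells, Trim21 had 9, 0 and 17 reads, Trim30d 5, 4 and 14, and Trim56 2, 5 and 16. Counts of members changed by KLA, here and in single arms, are therefore in part given by that limit, as are those of all genes. The fit has 2 residual degrees of freedom, which also hold any difference in the KLA response between siRNA arms. On the same reads DESeq2 called 7 members and limma on log2 CPM called 2, Trim21 and Trim36, with none lower in either. With a pseudocount of 1 CPM limma called none. Dendritic cell markers, 3 genes of which Flt3 was at 0 in all libraries, summed to 9.94, 14.4 and 8.87 CPM with KLA in siSmyd5, siPhf2 and siCtl cells, against 0.661, 0 and 0.41 CPM with vehicle; their part in the KLA folds was not tested.

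Trim21, the cytosolic receptor for antibody-coated virus, showed the largest averaged fold of the 26. It had 51.1, 123 and 42.6 CPM in siSmyd5, siPhf2 and siCtl cells with KLA, against 5.95, 0 and 6.97 CPM in the vehicle cells of the same arms. All KLA libraries lay above all vehicle libraries, with means of 72.1 ± 44 CPM with KLA and 4.31 ± 3.76 CPM with vehicle (SD, n = 3 each, 1 library per arm). The averaged log2 fold was 3.03 ± 0.34 (SE), with an edgeR adjusted p of 1.47e-06.

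Trim30a, which in mice restrains NF-kappaB signalling by removing the adaptor proteins Tab2 and Tab3, and its neighbour Trim30d also rose. Trim30a had 88.1, 368 and 70.5 CPM with KLA in siSmyd5, siPhf2 and siCtl cells, against 16.5, 12.2 and 25.0 CPM with vehicle. The groups did not overlap, and the siPhf2 KLA library held the highest value. Trim30a had an averaged log2 fold of 2.24 ± 0.30 (SE; edgeR adjusted p 1.24e-05). Trim30d had 15.6, 180 and 21.3 CPM with KLA, against 3.30, 16.3 and 5.74 CPM with vehicle. The siPhf2 vehicle value of Trim30d lay just above its siSmyd5 KLA value, so the groups overlapped, though KLA was higher within each arm. For Trim30d the averaged log2 fold was 2.35 ± 0.36 (SE; edgeR adjusted p 6.77e-05). The transcripts of Trim12c, Trim30a and Trim30d lie next to each other and are paralogs, and how the authors counted reads that match several of them is not given in the sources used here, so the split of reads among them is uncertain.

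Trim25, Trim26 and Trim56, which have reported roles in nucleic acid sensing, were among the 8 that rose. No set of sensing members was defined, so nothing is said of such members as a group. Trim25 had 244, 837 and 214 CPM with KLA in siSmyd5, siPhf2 and siCtl cells, against 102, 175 and 132 CPM with vehicle. No vehicle library of Trim25 reached a KLA library, and the log2 fold was 1.30 ± 0.24 (SE; edgeR adjusted p 0.000412). Trim26, a ligase reported to act on nuclear Irf3, had 30.5, 173 and 33.3 CPM with KLA, against 12.6, 8.13 and 18.9 CPM with vehicle. Its groups were apart as well, with a log2 fold of 1.37 ± 0.34 (SE; edgeR adjusted p 0.00673); the fold was 0.98 without either siPhf2 library and 2.23 without either siCtl library, and the call was kept. Trim56, which promotes signalling from cytosolic DNA through the adaptor Sting, was read less deeply, at 7.10, 43.3 and 17.7 CPM with KLA, against 1.32, 20.3 and 6.56 CPM with vehicle. Its arms stood at different levels and overlapped, with a log2 fold of 1.49 ± 0.40 (SE; edgeR adjusted p 0.0127); it was the 1 of the 8 that DESeq2 did not call (adjusted p 0.0877), and the call was lost without any 1 of the siSmyd5 or siCtl libraries.

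Trim36 and Trim13 come from other classes. Trim36 had 40.5, 57.7 and 49.2 CPM with KLA in siSmyd5, siPhf2 and siCtl cells, against 11.9, 8.13 and 6.97 CPM with vehicle. The 3 KLA values lay close together and far above the vehicle values, with a log2 fold of 2.37 ± 0.30 (SE; edgeR adjusted p 6.88e-06). Trim13 had 78.8, 7.22 and 50.6 CPM with KLA, against 21.1, 0 and 20.9 CPM with vehicle. It was higher with KLA in siSmyd5 and siCtl cells and nearly unread in siPhf2 cells, with 1 read with KLA and none with vehicle. Its averaged log2 fold was 1.57 ± 0.25 (SE; edgeR adjusted p 8.61e-05), and the call was lost when either siSmyd5 library was left out. The genomic span of Trim13, introns included, overlaps that of Dleu2 on the opposite strand by 3109 bases. The listed Trim13 transcript has 1574 bases, and the overlap of exons was not measured. Dleu2 had 15, 0 and 18 reads with KLA and 23, 4 and 18 with vehicle in siSmyd5, siPhf2 and siCtl cells. Whether counting used strand is not given in the sources used here.

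**Figure D2:**
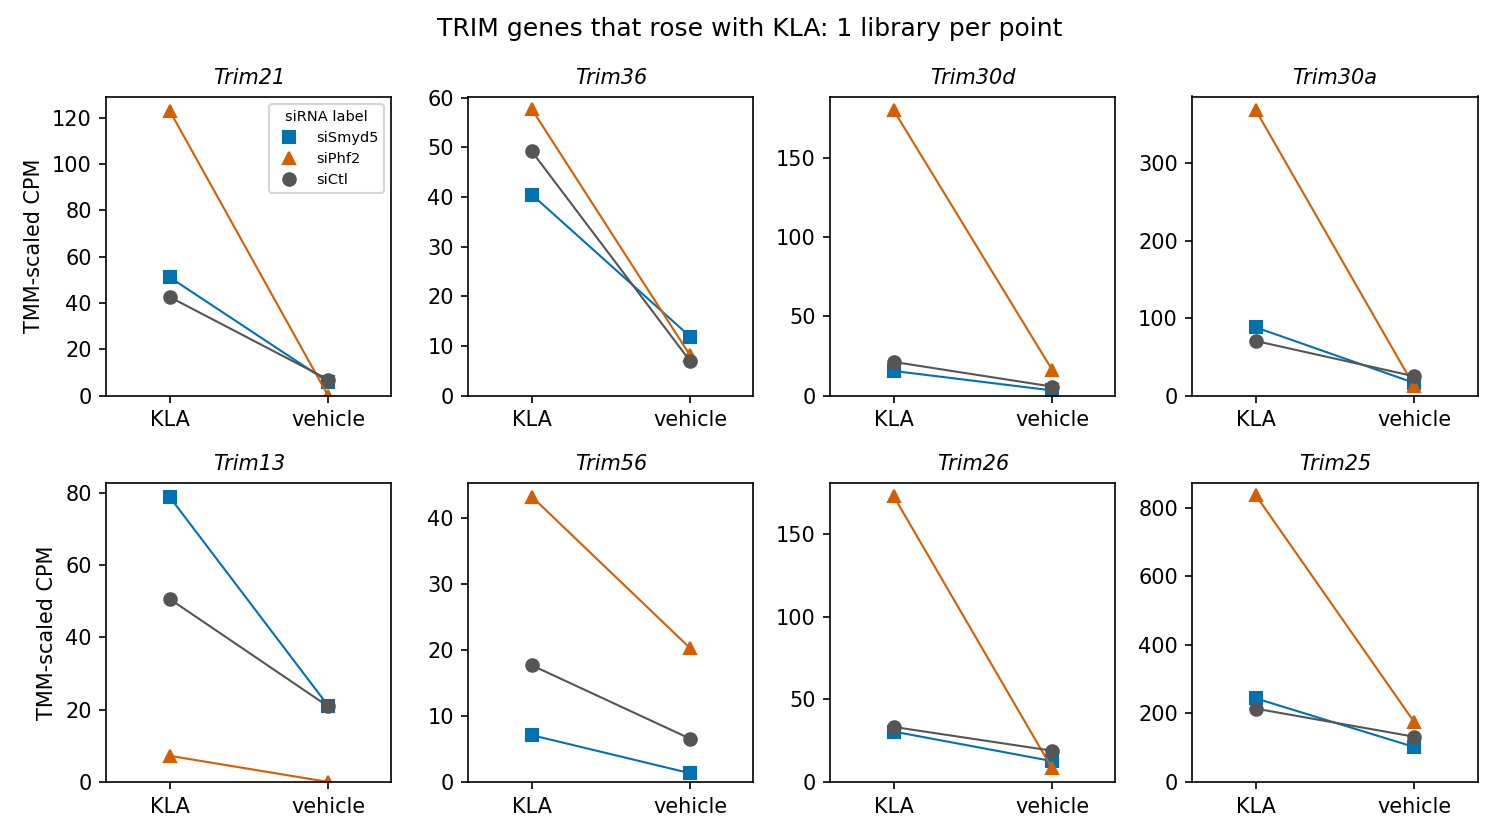
TMM-scaled CPM of the 8 TRIM genes that rose with KLA, 1 panel per gene with its own axis from 0; each point is 1 library, and lines join KLA and vehicle of 1 siRNA arm. KLA is above vehicle in all 3 arms for each gene, from 123 against 0 CPM for Trim21 in siPhf2 cells to 214 against 132 CPM for Trim25 in siCtl cells, and for Trim13 the siPhf2 arm holds 1 read with KLA and 0 with vehicle.

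The 8 genes came from several classes. Class C-IV held 5 of them among its 12 members: Trim21, Trim25, Trim26, Trim30a and Trim30d. Trim36 was the 1 member of class C-I, Trim13 the 1 member of class C-XI, and Trim56 1 of 2 members of class C-V. None of the 3 members of class C-VI passed, nor any of the 3 members with no RING domain. These counts are too small for more than a description.

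The other 18 members had averaged log2 folds between -0.70 for Trim37 and 0.92 for Trim12c, and none passed the test. Trim28 had 172, 238 and 152 CPM with KLA in siSmyd5, siPhf2 and siCtl cells, against 188, 175 and 151 CPM with vehicle. Its values overlapped between agents, with a log2 fold of 0.05 ± 0.19 (SE; edgeR adjusted p 0.92). Trim8 had 44.7, 65 and 63.4 CPM with KLA, against 59.5, 93.4 and 74.2 CPM with vehicle. Within each arm the KLA value of Trim8 was the lower of the pair, but the groups overlapped, and the log2 fold of -0.32 ± 0.19 (SE) had an edgeR adjusted p of 0.308.

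Trim12c and Trim37, singled out after their values were seen, had separate groups without passing. In siPhf2 cells Trim12c had 2 reads with KLA and 0 with vehicle, and Trim37 had 2 and 6. With 1 read worth 7.22 CPM in the siPhf2 KLA library, both separations rest on few reads. For Trim12c, a mouse relative of the primate restriction factor TRIM5, the values were 12.8, 14.4 and 13.3 CPM with KLA, against 5.95, 0 and 8.20 CPM with vehicle (log2 fold 0.92 ± 0.41 SE; edgeR adjusted p 0.146). Trim37 had 12.8, 14.4 and 15.1 CPM with KLA, against 15.9, 24.4 and 28.3 CPM with vehicle. Its KLA values were all below its vehicle values (log2 fold -0.70 ± 0.30 SE; edgeR adjusted p 0.128), and it passed when either siPhf2 library was left out. In all, 6 of 26 members had every KLA library above every vehicle library, against 10.7% of all genes, and 1 had every KLA library below, against 8.66%.

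Within single arms there is 1 library on each side, so ratios are given with an exact interval for counting error only and no test. The limit of size was a log2 ratio, with 2 reads added, of at least 1 in either direction together with an interval that excluded 1. By this rule 8 members were higher with KLA in siSmyd5 cells (8.72% of all genes), 6 in siPhf2 cells (8.31%) and 6 in siCtl cells (7.18%). No member was lower in any arm, where 3.5%, 6.42% and 2.68% of all genes were in siSmyd5, siPhf2 and siCtl cells. Trim21, Trim30a, Trim30d and Trim36 were higher in all 3 arms, 4 of 26 against 3.86% of all genes. Of any size, 10 of 26 were higher in all 3 arms, against 22.6% of all genes.

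The size of the KLA ratio differed from arm to arm. Trim30a had ratios of 5.33 (3.45–8.56) in siSmyd5 cells, 30.2 (9.77–151) in siPhf2 cells and 2.82 (2.09–3.85) in siCtl cells. The siPhf2 ratio of Trim30a rests on 51 reads with KLA and 3 with vehicle. Trim25 had ratios of 2.39 (1.97–2.91), 4.79 (3.35–6.97) and 1.62 (1.41–1.87) in the same order of arms, and only the siCtl ratio stayed under the limit of size. For Trim25 no interval of 1 arm overlapped that of another. Trim26 had 2.43 (1.39–4.42) in siSmyd5 cells, 21.3 (5.29–186) in siPhf2 cells, from 24 and 2 reads, and 1.76 (1.21–2.6) in siCtl cells. Trim36 ran in another order, with 3.4 (1.97–6.15), 7.11 (1.42–68.7) and 7.06 (4.22–12.6), all overlapping. Trim21 was 8.6-fold higher with KLA (4.29–19.6) in siSmyd5 cells and 6.11-fold (3.62–10.9) in siCtl cells. In siPhf2 cells it had 17 reads against 0, and the lower 95% limit of the ratio was 7.33. Trim30d had ratios of 4.73 (1.75–16) in siSmyd5 cells, 11.1 (3.83–43.9) in siPhf2 cells and 3.71 in siCtl cells, with overlapping intervals. Trim13 had 3.73 (2.5–5.71) in siSmyd5 and 2.42 (1.72–3.43) in siCtl cells, and Trim56 5.37 (1.15–50.5), 2.13 (0.542–8.83) and 2.7 (1.48–5.17) in the 3 arms. Whether the KLA response differs between siRNAs was not tested, since each arm has 1 library per agent.

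**Figure D3:**
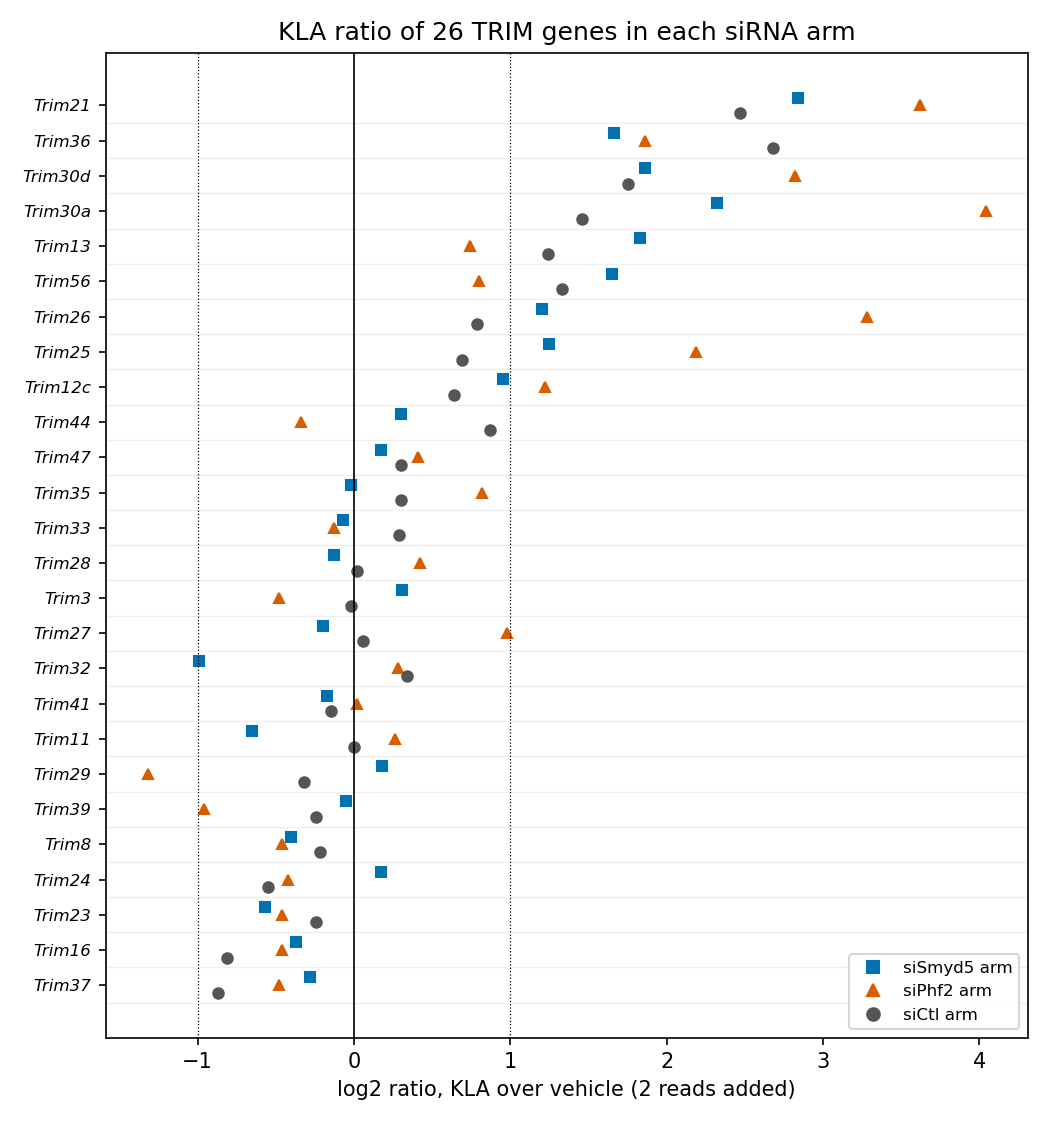
Log2 ratio of KLA over vehicle, with 2 reads added, for the 26 TRIM members in each siRNA arm, ordered by the averaged fold; dotted lines mark the limit of size at 1 in either direction. Trim21, Trim36, Trim30d and Trim30a lie beyond 1 in all 3 arms, and no member lies beyond -1 with an interval that excludes a ratio of 1.

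Some of these genes lie together in the genome. By the deposited coordinates, with build mm9 named in the submitters' processing notes, 6 of 26 members lie on chromosome 7 and 6 on chromosome 11. On chromosome 7, Trim21 spans 109706436–109713983, Trim12c 111487268–111501872, Trim30a 111557540–111613707 and Trim30d 111618529–111656363, all on the minus strand, with Trim3 further along at 112758984–112782013. Trim28 lies far from them at 13609501–13616381. Of these 6, Trim21, Trim30a and Trim30d rose with KLA; Trim12c, Trim3 and Trim28 did not pass. On chromosome 11 only Trim25 (88860717–88881607, plus strand) rose of 6. The others that rose were Trim13 on chromosome 14 (62218349–62224782), Trim26 on 17 (36974086–36996325), Trim36 on 18 (46324954–46358472) and Trim56 on 5 (137587156–137592077).

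As a description, the promoters of the members were searched for the core of the interferon-stimulated response element, which interferon regulatory factors bind. The core is GAAA and GAAA with any 2 bases between, on either strand. RefSeq windows (build GRCm38.p6) that run from 250 bases before to 50 after the start were at hand for 18 of 26 members, 7 of them among the 8 that rose. The core stood in 5 of the 18, Trim12c, Trim21, Trim26, Trim30a and Trim30d, of which all but Trim12c rose; 3.99% of 27025 genes with a window held it. The matching stretches, in capitals where the core or its reverse complement stands, read as follows, 5′ to 3′ on the gene's strand.
Trim21: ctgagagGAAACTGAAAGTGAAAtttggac
Trim26: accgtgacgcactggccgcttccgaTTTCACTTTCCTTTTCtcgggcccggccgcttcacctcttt
Trim30a: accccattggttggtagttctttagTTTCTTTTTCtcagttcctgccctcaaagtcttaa
Trim30a, second start: tttttagTTTCTTTTTCtcagttcctgccc
Trim30d: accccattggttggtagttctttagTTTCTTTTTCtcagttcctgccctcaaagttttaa
Trim12c: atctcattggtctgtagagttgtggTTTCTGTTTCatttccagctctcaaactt

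The stretches lie at chr7:102565447-102565476 (minus strand) for Trim21, chr17:36836961-36837026 (plus strand) for Trim26, chr7:104465195-104465254 (minus strand) and chr7:104446101-104446130 (minus strand), at 2 of its RefSeq starts, for Trim30a, chr7:104507856-104507915 (minus strand) for Trim30d and chr7:104353350-104353403 (minus strand) for Trim12c. In Trim21 and Trim26 a pair of overlapping cores makes the longer capital run. The first Trim30a stretch and the Trim30d stretch are identical at 59 of 60 bases. Trim30a, Trim30d and Trim12c are neighbouring paralogs, so their matches are not independent of each other. A kappaB motif, GGGA and TTTCC with any base between, was in none of the 18 windows (0.466% of all), and a STAT motif, TTC and GAA with any 3 bases between, in none either (both strands searched) (9.55% of all). A match is a run of letters and not a measured binding site, and the letters were searched in no more than these windows.

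A share within the family does not depend on how libraries are scaled. The 8 genes that rose held 50.8% of the reads on all 26 members in siSmyd5 KLA cells (exact 95% interval 48.3–53.3), against 23% (20.6–25.5) in siSmyd5 vehicle cells. In siPhf2 cells they held 69.5% (64.4–74.2) with KLA and 25.0% (19.6–31) with vehicle, and in siCtl cells 45.4% (43.4–47.4) with KLA and 27.3% (25.3–29.3) with vehicle. The 8 were picked by their KLA response, so a gap between agents is given by the choice; the siPhf2 share with KLA stood above both other KLA shares, its interval apart from theirs, while the vehicle intervals of siPhf2 overlapped both others. Trim25 alone held 32.5% (27.7–37.6) of TRIM reads in siPhf2 KLA cells, against 19.5% (17.9–21.1) in siCtl KLA cells. The remaining 18 members summed to 538, 787 and 601 CPM with KLA in siSmyd5, siPhf2 and siCtl cells, against 584, 719 and 595 CPM with vehicle.

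**Figure D4:**
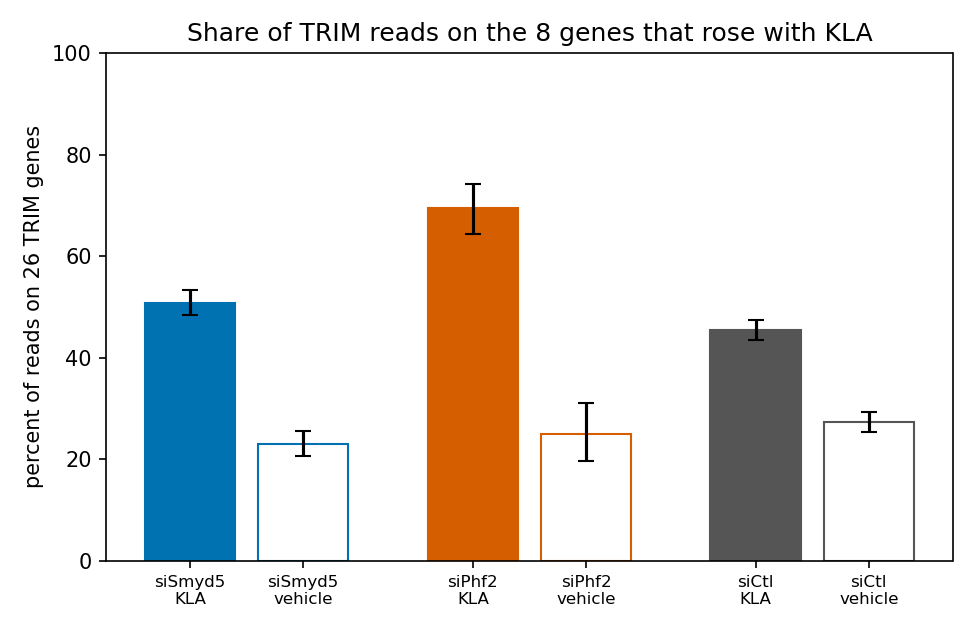
Percent of the reads on the 26 TRIM members that fall on the 8 genes that rose with KLA, per library (filled bars KLA, open bars vehicle); error bars are exact binomial 95% intervals for counting error. The siPhf2 KLA library has 69.5%, the siSmyd5 and siCtl KLA libraries 50.8% and 45.4%, and the vehicle libraries 23% to 27.3%.

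No TRIM member passed for siSmyd5 in either direction in the averaged edgeR fit, where 2.75% of all genes rose and 3.65% fell, 6.4% in all. DESeq2 and both limma forms called none either; 3 members, Trim23, Trim32 and Trim56, had an unadjusted edgeR p under 0.05, 11.5% of the members against 23.7% of all genes. The members' median log2 fold was -0.24, against 0.00 for all genes. By size in single libraries, 2 members were lower with KLA (3.76% of all genes) and 1 with vehicle (5.42%), and none was higher (1.83% and 2.59%).

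Trim56 was the 1 member lower by size under both agents. It had 7.10 CPM in siSmyd5 KLA cells against 17.7 CPM in siCtl KLA cells, a ratio of 0.4 (0.178–0.814) from 10 and 40 reads, and 1.32 against 6.56 CPM with vehicle, a ratio of 0.201 (0.0225–0.856) from 2 and 16 reads. Its averaged log2 fold was -1.53 ± 0.48 (SE; edgeR adjusted p 0.0616). Trim32, an NHL-repeat ligase known for its role in human muscle disease, had 4.97 CPM in siSmyd5 KLA cells against 20.0 CPM in siCtl KLA cells, a ratio of 0.249 (0.0947–0.556) from 7 and 45 reads. With vehicle Trim32 had 11.2 against 15.6 CPM, a ratio of 0.721 (0.381–1.31), whose interval includes 1. Over both agents Trim32 had a log2 fold of -1.10 ± 0.40 (SE; edgeR adjusted p 0.0957). Trim56 and Trim32 both passed, as lower, when either siPhf2 library was left out of the fit. With siCtl and siPhf2 names exchanged, siSmyd5 is set against the libraries now labelled siPhf2, and 1 member rose and 7 fell. The share of all genes called under that exchange is not given here.

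Transcript length moved with the siSmyd5 ratios. Across all genes the log2 ratio correlated with length at a Spearman rho of -0.47 with KLA and -0.455 with vehicle, genes of the same 2 libraries being no independent replicates. Within the 26 members that correlation was -0.133 with KLA and -0.0906 with vehicle. The members had a median length of 3656 bases, against 2914 for all genes tested, and 5 of the 26 were shorter than that gene median. Under the log2 ratio of 0 lay 16 of 26 members with KLA and 18 with vehicle, against 49.6% and 50.2% of all genes. With the length trend removed, 12 and 17 members lay under 0, and the members' median changed to 0.03 in place of -0.12 with KLA, and to -0.25 in place of -0.32 with vehicle.

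In the averaged fit for siPhf2, 4 members rose (8.13% of all genes did) and 1 fell (4.54%), but the directions depend on scaling, library and label. Scaled to the total of reads, which Rn45s dominates in these libraries, 0 rose and 18 fell, and with siCtl and siPhf2 names exchanged the 5 called folds change sign. Scaled to the total without Rn45s, 1 rose and 2 fell. DESeq2 called 1 higher and 0 lower, but gave no adjusted p for Trim13 (log2 fold -3.51) or Trim44 (1.97). With limma 0 were higher and 1 lower. The share of all genes called under these other settings is not given here, so these member counts are not read as particular to TRIM genes. The median of all genes under vehicle was -0.10 on the log2 scale with TMM, -1.95 with the total and -0.54 with the total without Rn45s. With KLA it was -0.31, -2.24 and -0.70. Relative to that median, the TRIM median was 0.28, 0.19 and 0.30 higher in the 3 scalings with vehicle, and 0.57, 0.53 and 0.54 higher with KLA. A change of scaling moves the log2 ratios of all genes between 2 libraries by nearly the same amount. The likeness of these differences across scalings was therefore fixed in advance, and nothing is concluded from it. The 5 stromal markers summed to 289 and 390 CPM in siPhf2 cells (KLA, then vehicle), against 641 and 608 CPM in siCtl cells; neither their part nor that of Rn45s in the siPhf2 folds was tested.

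Trim30d, Trim30a and Trim25, which also rose with KLA, were 3 of the 4. With KLA, Trim30d had 180 CPM in siPhf2 cells against 21.3 CPM in siCtl cells, from 25 and 48 reads, and with vehicle 16.3 against 5.74 CPM, from 4 and 14 reads. Its averaged log2 fold was 2.73 ± 0.45 (SE; edgeR adjusted p 0.000438), and it was called by DESeq2 too. The call was lost with scaling to the total, where the fold was 0.51, without the siCtl KLA library (1.94), without the siPhf2 KLA library (1.56) and in both limma forms. Trim30a had 368 against 70.5 CPM with KLA and 12.2 against 25.0 CPM with vehicle, so it was higher in siPhf2 cells under 1 agent only. Its log2 fold of 1.66 ± 0.42 (SE; edgeR adjusted p 0.0127) was -0.58 with scaling to the total and not called. It was -0.80 without the siPhf2 KLA library and 0.35 without the siCtl KLA library. Without siSmyd5 vehicle it was 1.38 and without siSmyd5 KLA 1.33, and Trim30a was called in none of these 4 fits. With a minimum mean of 50 reads Trim30a was not called either. With the total without Rn45s neither Trim30a nor Trim25 was called. Trim25 had 837 against 214 CPM with KLA and 175 against 132 CPM with vehicle. Its log2 fold of 1.27 ± 0.30 (SE; edgeR adjusted p 0.00799) turned to -0.92 with scaling to the total, and was 0.53 without the siPhf2 KLA library and 0.71 without the siCtl KLA library, called in neither case.

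Trim44, which lacks a RING domain and carries a ubiquitin-binding zinc finger, was the fourth. It had 36.1 CPM in siPhf2 KLA cells against 16.4 CPM in siCtl KLA cells, and 48.8 against 8.61 CPM with vehicle. The vehicle values come from 12 and 21 reads and give a ratio of 5.66 (2.54–12). The log2 fold of 1.89 ± 0.53 (SE; edgeR adjusted p 0.0226) was -0.25 with scaling to the total, and of the 6 fits that leave out 1 library only that without siPhf2 KLA kept the call; without siPhf2 vehicle the fold was 1.23.

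Trim13 was the member that fell. It had 7.22 CPM in siPhf2 KLA cells against 50.6 CPM in siCtl KLA cells, from 1 and 114 reads, and with vehicle 0 against 20.9 CPM, from 0 and 51 reads. The ratio was 0.143 (0.00358–0.811) with KLA, and with vehicle the upper limit of the interval was 0.743. Trim13 had a log2 fold of -3.55 ± 0.98 (SE; edgeR adjusted p 0.0219), and leaving out either siCtl library ended the call; without the siPhf2 KLA library the fold was -7.86. At 1574 bases it is the shortest of the 26, and over all genes the siPhf2 log2 ratio correlated with length at a Spearman rho of 0.249 with KLA and 0.355 with vehicle; with the length trend removed its log2 ratio was -1.61 in place of -2.33 with KLA and -2.67 in place of -3.19 with vehicle, and it was no longer called lower by size under either agent, as the upper limits of the corrected ratio were 1.34 and 1.06. Set against the other TRIM genes of its own library, free of scaling, Trim13 held 0.28% of TRIM reads in siPhf2 KLA cells (0.00709–1.55) against 4.59% in siCtl KLA cells (3.8–5.49), and 0 of 236 reads (upper limit 1.55%) in siPhf2 vehicle cells against 2.56% in siCtl vehicle cells (1.91–3.35). These shares are not free of the length trend. With KLA their total also holds more Trim25, 32.5% in siPhf2 against 19.5% in siCtl cells.

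By size in single libraries, 6 members were higher in siPhf2 than in siCtl cells with KLA (7.75% of all genes) and 1 was lower (7.17%), and with vehicle 1 was higher (10.6%) and 1 lower (8.72%). The 6 with KLA were Trim30d at a ratio of 8.47, Trim30a at 5.22, Trim26 at 5.21, Trim25 at 3.91, Trim21 at 2.88 and Trim41 at 2.17. All but Trim41 are among the 8 that rose with KLA, and the same siPhf2 and siCtl KLA libraries enter both comparisons. With scaling to the total no member was higher under either agent.

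**Figure D5:**
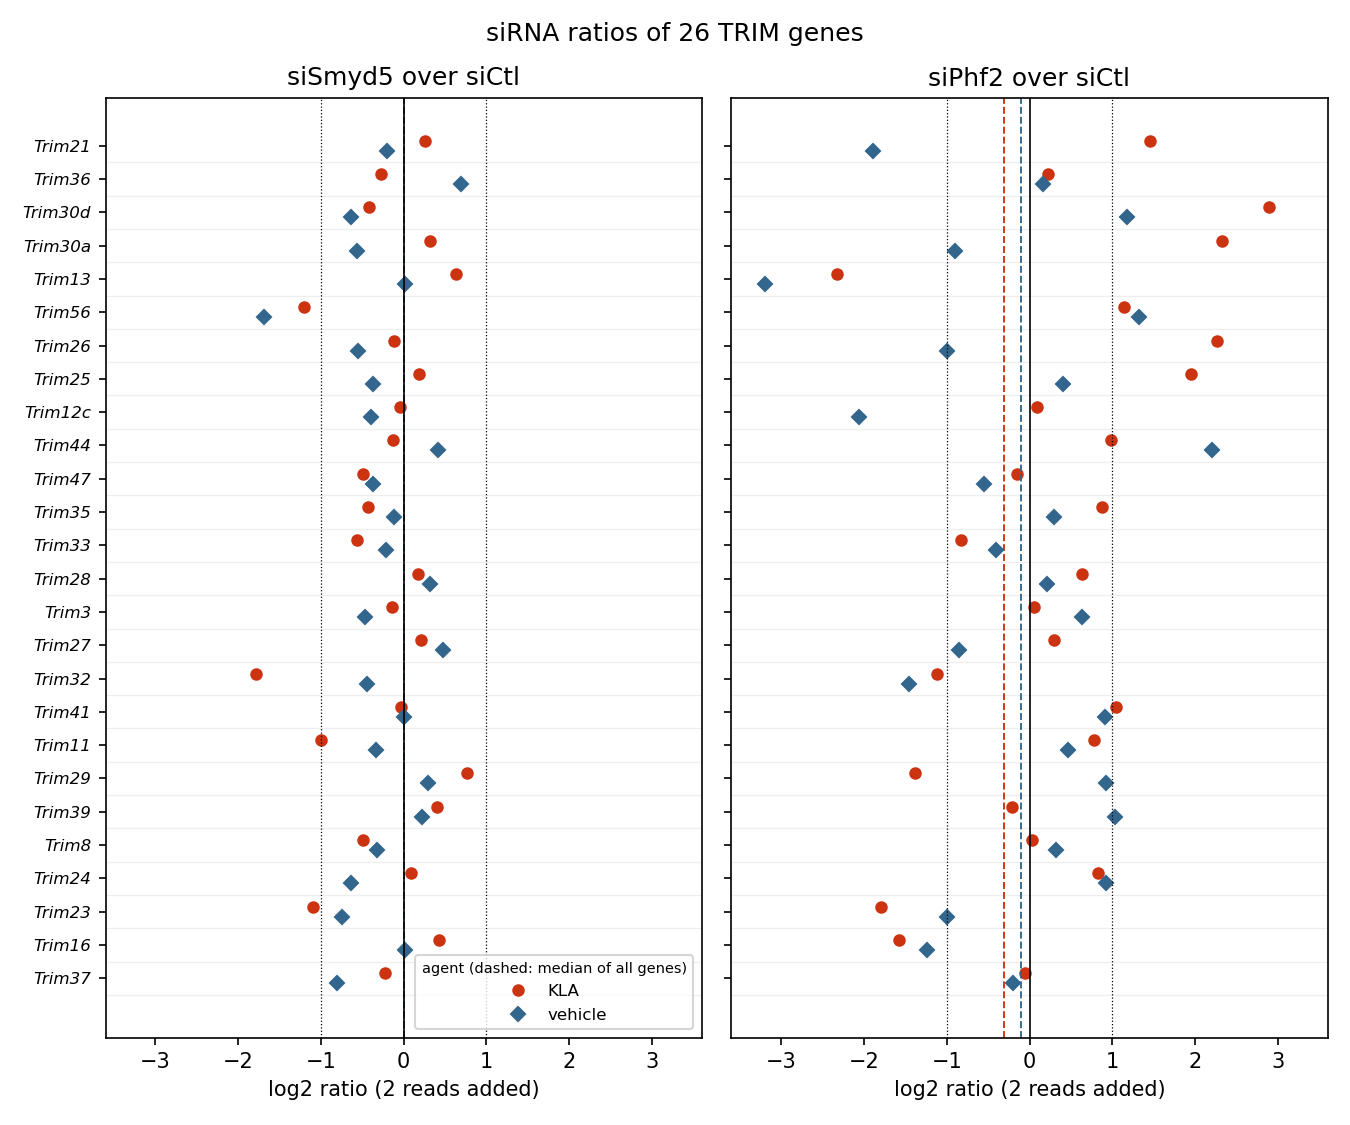
Log2 ratio over siCtl of the same agent, with 2 reads added, for the 26 TRIM members in siSmyd5 (left) and siPhf2 cells (right); circles are KLA, diamonds vehicle, dotted lines the limit of size at 1, and dashed lines the median of all genes. siSmyd5 ratios lie mostly within the dotted lines, with Trim56, Trim32 and Trim23 beyond them on the left, while siPhf2 ratios run from -3.19 for Trim13 with vehicle to beyond 2 for Trim30d, Trim30a and Trim26 with KLA and Trim44 with vehicle; with scaling to the total most siPhf2 ratios turn negative.

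Family members under other symbols and the pathways around the family were read in the same fits. Of 8 family members under other symbols, 3 had the depth to be tested, and 2 rose with KLA: Mefv, the pyrin gene of the inflammasome, with a log2 fold of 4.17 and Pml, the scaffold of nuclear bodies, with 1.60. Mid1 had 0.38 and did not pass (edgeR adjusted p 0.285). Of all genes 11.2% rose with KLA. Pml also rose with siPhf2 at a log2 fold of 2.47 under TMM scaling, a call lost when scaled to the total. None of the 3 passed with siSmyd5.

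Genes from nucleic acid sensing to interferon included 9 that rose and 2 that fell with KLA among 20 tested. Across all genes 11.2% rose and 4.6% fell with KLA. The RNA sensors Ifih1 and Ddx58 (Ddx58 encodes RIG-I) had log2 folds of 4.03 and 2.25, and Tlr3, the endosomal receptor of double-stranded RNA, had 2.34; the adaptor Ticam1 fell by 0.86. In interferon receptor signalling 9 of 13 rose and none fell, led by the feedback inhibitor Socs3 at 5.04, the transcription factor Irf1 at 4.01, the inhibitor Socs1 at 2.84 and the signal transducer Stat2 at 2.50. Of 28 interferon-stimulated genes 26 rose and none fell, with Cxcl10, a chemokine, at 8.23, Gbp5 at 7.19, Ifit1 at 6.11 and Mx2 at 5.82. With siSmyd5 none of the genes of these 3 lists passed in either direction, where 6.4% of all genes changed. With siPhf2, 3 of 20, 3 of 13 and 17 of 28 rose and none fell under TMM scaling. Of all genes 8.13% rose and 4.54% fell there. Scaled to the total, 0, 0 and 1 rose and 19, 12 and 15 fell. With the total without Rn45s, 2, 2 and 10 rose and 4, 1 and 0 fell.

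Lists closer to ubiquitin and to Trim28 were counted in the same way. Of all genes 15.8% changed with KLA, 6.4% with siSmyd5 and 12.7% with siPhf2. Among 12 tested E1 and E2 enzymes, 2 rose with KLA, both of the ISG15 pathway: Uba7, its activating enzyme, with a log2 fold of 2.12 and Ube2l6, its conjugating enzyme, with 1.22. With siSmyd5 1 of the 12 rose, Ube2e3 at 0.92. With siPhf2 1 rose, Uba7 at 2.53, and 1 fell, Ube2d3 at -3.05. Among 9 silencing partners of Trim28, Chd4 rose by 0.66 with KLA (a call lost with scaling to the total), while the methyltransferase Setdb1 and its cofactor Atf7ip had -0.83 and -0.72 and fell. With siSmyd5 1 of the 9 rose, and with siPhf2 2 rose and 1 fell. In selective autophagy, 2 of 15 rose with KLA, the immunity-related GTPase Irgm1 at 2.14 and the cargo receptor Sqstm1 at 1.24, and the cargo receptor Nbr1 fell, at -0.75. With siSmyd5 2 of the 15 rose and 1 fell; scaled to the total, 0 rose with siSmyd5 in each of the 3 lists and 1 of the 15 fell. With siPhf2 1 rose and none fell. These siPhf2 counts hold under TMM scaling. Scaled to the total, 0 rose in the 3 lists, and 11 of 12, 9 of 9 and 15 of 15 fell. With the total without Rn45s, 1, 0 and 0 rose and 4, 4 and 5 fell, in the same order of lists.

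The genes whose log2 profile over the 6 libraries was most like the mean profile of the 8 TRIM genes were Ddx58 with a Pearson correlation of 0.998, Parp12 with 0.997, Zfand3 with 0.997, Il12b with 0.996 and Il15ra with 0.994. Their averaged KLA log2 folds ran from 0.63 for Zfand3 to 5.77 for Il12b, so likeness of profile is not likeness of size. These are descriptions over 6 libraries that share depth and scaling. Among the 8 themselves, the pairs without Trim13 correlated at 0.548 to 0.982, the highest being Trim25 with Trim30d, while pairs with Trim13 ran from -0.454 to 0.429. The 8 were picked by their KLA response in these libraries, so positive correlations among them are in part given by the choice.

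Members under the limit of 10 reads give reads only. Trim14 had 6, 11 and 24 reads with KLA in siSmyd5, siPhf2 and siCtl cells, against 2, 2 and 12 with vehicle, and was called higher with KLA when no minimum was set. Trim12a had 12, 3 and 15 reads with KLA, against 4, 2 and 5 with vehicle. Trim6 had 1, 1 and 16 reads with KLA, against 0, 0 and 2 with vehicle. The 20 symbols of this kind averaged 0.167 to 9.5 reads, and at this depth 0 reads allows up to 3 reads, or 12.2 to 21.7 CPM in the siPhf2 libraries and 1.23 to 2.13 CPM in the others.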

How the data were processed

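Poly(A) RNA was fragmented, given a poly(A) tail, reverse transcribed with barcoded oligos, size-selected, circularized and amplified, per the labels' protocols. The deposited values are a signal, reads per RefSeq transcript scaled to 10000000 tags, per the file headers. HOMER and mm9 are named in the submitters' processing notes; the aligner, strand use and treatment of multiple matches have no source here. Whole reads (within 0.02) were recovered from 100% of values above 0, with siCtl and siPhf2 totals exchanged.

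The count test, planned for recovered reads, was the quasi-likelihood test of edgeR 4.0.16 (R 4.3.3) with TMM scaling, additive siRNA and agent terms, a minimum mean of 10 reads and Benjamini-Hochberg over 7995 genes. DESeq2 1.42.0 and limma 3.58.1 (log2 of TMM-scaled CPM plus 15.2 or 1) were alternatives, with other scalings, minima, libraries left out and exchanged names. Folds are on the log2 scale. Single-library ratios have exact Poisson 95% intervals and shares exact binomial ones (scipy 1.17.1); without molecular identifiers both cover counting error only. Library totals were 420142 to 1429519 reads. Nothing says that libraries came from separate cultures or animals, so p-values measure the spread between these libraries. The edgeR fit shares information on that spread across all 7995 genes, so a p-value does not rest on 1 gene's residuals alone. The SE given with an edgeR fold is the absolute log2 fold over the square root of the F statistic.

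Named were all members that passed a fit or the limit of size, and the highest per class. Members and lists were chosen with earlier results of these data known. Promoter windows came from RefSeq.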

Additional observations from a re-analysis of the deposited data

How the results depend on the processing

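Depth limits the siPhf2 libraries most: 18 of 26 TRIM members had fewer than 10 reads in each. For KLA, the folds of the 8 genes that rose kept their direction in every alternative run. The count that rose was 2 with limma, 0 with limma at a pseudocount of 1 CPM and 3 with a minimum mean of 50 reads, where only 9 members were left to test, and 6 to 8 over the fits that leave out 1 library; the count that fell was 0 to 1 over those fits. For siSmyd5, the count that fell was 1 with no minimum and 0 to 2 without 1 library, and with names exchanged 1 rose and 7 fell. For siPhf2, the count that rose was 1 with DESeq2, 0 with either limma form, 0 scaled to the total, 1 scaled to the total without Rn45s, 2 with a minimum of 50 reads and 1 with names exchanged. DESeq2 gave no adjusted p for Trim13 or Trim44 there. The count that fell was 0 with DESeq2, 0 with limma at 1 CPM, 18 scaled to the total, 2 scaled to the total without Rn45s and 4 with names exchanged. Without 1 library, 0 to 5 rose and 0 to 1 fell. Scaled to the total, the siPhf2 log2 folds were -0.92 for Trim25, -0.58 for Trim30a and -0.25 for Trim44. With names exchanged they were -1.27 for Trim25, -1.66 for Trim30a, -2.73 for Trim30d, -1.89 for Trim44 and 3.55 for Trim13. Over the fits without 1 library Trim30a had -0.80 (without siPhf2 KLA) to 2.26. Shares of all genes called are given for the main settings only.

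By size in single libraries, a minimum of 50 reads left 3 members higher with KLA in siSmyd5 cells, 2 in siPhf2 and 2 in siCtl cells. It left 0 lower for siSmyd5 under either agent, and for siPhf2 3 higher with KLA and 0 with vehicle. In siCtl cells 1 member was lower with KLA when scaled to the total, with or without Rn45s. Scaled to the total, siPhf2 cells had 0 higher and 15 lower with KLA, and 0 higher and 18 lower with vehicle. The median log2 ratio of all genes was -2.24 with KLA and -1.95 with vehicle under that scaling. Without Rn45s, 2 members were lower under each agent. The length correction left 0 lower for siPhf2 with KLA. With vehicle it left 1 lower, Trim33 (log2 ratio -1.25) in place of Trim13. With names exchanged, siSmyd5 cells had 1 higher and 8 lower with KLA and 2 higher and 4 lower with vehicle, and siPhf2 cells 1 higher and 6 lower with KLA. The other 116 counts under alternatives were within 1.5 times the main count. The causes of these changes were not tested, apart from the fewer genes under the higher minimum and the other control under exchanged names. No paired analysis was possible because each group has 1 library, with no replicate number to pair beyond the siRNA arm, which the additive fit already holds as a term.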
